A study of Mus musculus with 2 samples.

Results

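Xcl1 and Itga1 tissue-type CD8 T cells are lung tumour T cells that carry both the CD8 co-receptor and RNA of the chemokine Xcl1 or the integrin subunit Itga1, and that carry at most 1 UMI of granzyme A (Gzma). They were chosen by measured values. A barcode was a member if it had at least 500 detected genes and at most 10% of its UMIs (unique molecular identifiers, 1 per captured RNA molecule) from mitochondrially coded genes. It also needed at least 2 UMIs of Cd3d, Cd3e and Cd3g together, at least 2 of Cd8a and Cd8b1 together, and at least 1 of Xcl1 and Itga1 together. Barcodes with a Cd4 or Cd79a UMI, or with more than 1 UMI of Trdc or of Gzma, were left out. The rule found 1873 cells among 25811 barcodes, 496 in the library labelled WTKL and 1377 in the library labelled LYZKL.

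The study asked how STING in myeloid cells bears on T cells in lung tumours of mice with a floxed Lkb1. All hosts were lethally irradiated mice whose tumour genotype includes Lkb1fl/fl, in which intranasal adenoviral Cre (Ad-Cre) starts tumours in the airway lining. WTKL hosts had received Tmem173fl/fl bone marrow, so that their blood cells keep Tmem173, the gene of STING. LYZKL hosts had received Tmem173fl/fl;Lyz2-Cre bone marrow, in which Cre acts in myeloid cells. T cells sorted as CD4 or CD8 positive were taken 8 weeks after Ad-Cre, and tamoxifen is named in the WTKL treatment label but not in that of LYZKL. Host T cells that outlive irradiation, and the number of mice pooled per library, are not given in the sources used here. Since Lyz2-Cre is not aimed at T cells, the Tmem173 level in these CD8 cells does not check the deletion.

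CD8 T cells that have settled in a tissue differ from those that circulate. They lose the receptors that lead back to blood and lymph node, such as Ccr7 and S1pr1, and gain molecules that hold them in place. Itga1 (CD49a) pairs with Itgb1 to bind collagen, Itgae (CD103) binds E-cadherin on epithelium, and Cxcr6 responds to Cxcl16. Xcl1 draws cross-presenting dendritic cells through their receptor Xcr1. Klrk1 encodes NKG2D, which senses stress ligands on tumour cells, and Klrc1 encodes the inhibitory receptor NKG2A.

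Each group is 1 library, so that no difference between them has a replicate check and none was tested. Intervals are 95% and cover counting error only, and they are too narrow where the UMIs of a gene sit in few cells. The matrices held 12204 and 13607 barcodes (WTKL given first throughout), where the labels state 6609 and 7202 cells. Members had a median of 6228 and 5021 UMIs and of 2284 and 2047 detected genes, and their UMIs summed to 4440063 and 9663783. The libraries shared 100 barcodes, of which 3 belonged to WTKL members and 12 to LYZKL members, with 1 a member in both. Doublets beyond the Cd4 and Cd79a gates were kept, and the cells with the highest Scrublet scores made up 11.7% and 14.96% of members.

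RNA of myeloid cells accompanied the members. Macrophage and monocyte markers (Lyz2, Csf1r, Cd68, C1qa, Apoe and Mrc1, all 6 detected) summed to 3077 and 2121 CPM (UMIs of the gene scaled to a common total, so that libraries of different depth compare), above the 559 and 328 CPM of Cd4-gated T cells. Neutrophil markers, also 6 of 6 detected, summed to 1623 and 2361 CPM. A group of 134 of 496 WTKL members (27.0%, 23.2 to 31.2) and 260 of 1377 LYZKL members (18.9%, 16.8 to 21.1) carried at least 5 UMIs of the macrophage markers or 10 of the neutrophil markers. These myeloid-rich cells had a median of 15272 and 13515.5 UMIs, against 4958.5 and 4513 in the rest. Without them the macrophage markers summed to 93.1 and 82.4 CPM over 362 and 1117 cells, and several results are given both ways. Dendritic cell markers reached 40.3 and 6.93 CPM with Xcr1 and Siglech at 0, B cell markers 28.2 and 12.0 CPM, and the haemoglobin genes 0 and 0.621 CPM.

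Members formed a larger part of the CD8 cells in LYZKL. Of CD8-gated cells, which pass every step of the rule except those on Gzma and on Xcl1 and Itga1, members made up 21.9% (20.2 to 23.6) in WTKL and 44.5% (42.8 to 46.3) in LYZKL, a ratio of 2.04 (1.87 to 2.22). The ratio was 2.62 (2.37 to 2.89) among all CD3-gated cells, where members made up 5.29% and 13.9%, and 2.48 (2.24 to 2.74) among all kept barcodes. Naive-type cells, without Xcl1 or Itga1 and with at least 2 UMIs of naive markers such as Ccr7 and Lef1, went the other way, from 25.7% to 8.21% of CD8-gated cells. Gzma-high cells (2 or more Gzma UMIs) made up 26.8% and 19.6%, and cells with Gzmk or Eomes but neither Xcl1 nor Itga1 made up 11.8% and 8.41%. Over all CD3-gated cells the Gzma-high cells were 6.47% and 6.099%. The libraries came from a sort, and the CD4 to CD8 balance that it set was not tested. Median depth of CD8-gated cells was lower in LYZKL (6694.5 and 5187.5 UMIs). Among CD3-gated cells (5255 and 6030) and kept barcodes (4840 and 5327) it was higher in LYZKL. With every cell thinned to 2000 UMIs before the rule the ratio for the share of members among CD8-gated cells was 2.05 (1.77 to 2.38).

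**Figure D1:**
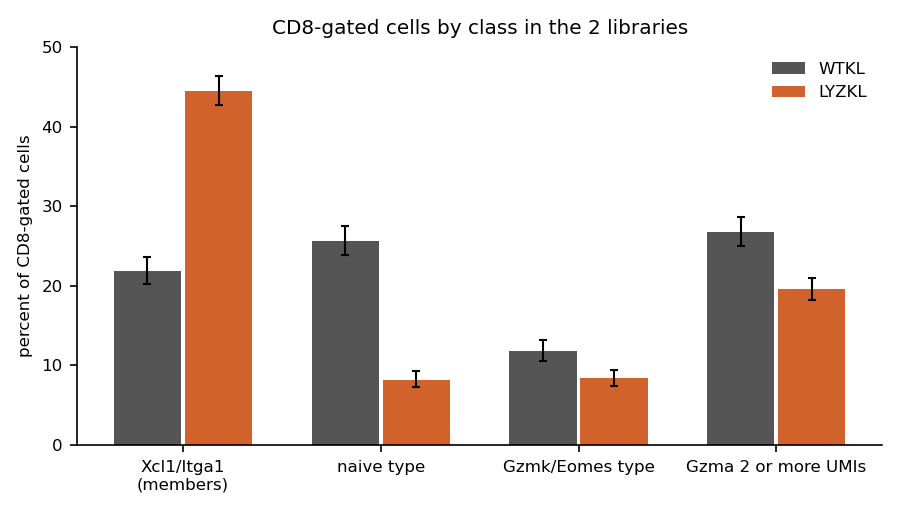
Share of CD8-gated cells (percent, y axis) that fell in each class in WTKL and LYZKL, with 95% exact binomial intervals as error bars. Members were 21.9% of CD8-gated cells in WTKL and 44.5% in LYZKL, while naive-type cells were 25.7% and 8.21%.

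The members read as alpha-beta CD8 T cells. Cd8b1, whose product pairs with Cd8a on conventional CD8 T cells, was detected in 92.7% (90.1 to 94.9) of WTKL and 96.0% (94.8 to 97.0) of LYZKL members. The rule asks for at least 2 UMIs of Cd8a and Cd8b1 together, so selection sets part of this share. The T cell receptor genes below, apart from Trdc, are not part of the rule. With every cell thinned to 2000 UMIs, which leaves out 5 and 35 shallower members, the Cd8b1 shares were 70.1% and 76.7%. Trac, the alpha chain constant gene (chromosome 14, 54220521 to 54224206, GRCm38), was found in 97.6% and 93.0%, Trbc1 in 63.5% and 71.0%, and Trbc2 in 84.3% and 82.9%. The delta chain constant gene Trdc (chromosome 14, 54142851 to 54148868) was found in 2 of 496 and 1 of 1377 members, a near absence that the limit of 1 Trdc UMI helps to set, although that limit removed only 7 and 6 cells. Trdv4 had 1 cell in each library, and the gamma-delta factor Sox13 none in either, which allows a share of up to 0.605% and 0.218%. In B-gated cells (2 or more Cd79a UMIs and none of Cd3), where any UMI of these genes is background, Cd8b1 was seen in 2.01% and 1.83% and Trac in 12.5% and 8.84%, at median depths of 3129 and 3451.5 UMIs. B-gated cells, unlike members, were not selected on Cd8b1.

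Most members nevertheless carried a gamma chain transcript. Tcrg-C2 (chromosome 13, 19304649 to 19307551, minus strand) was detected in 55.8% (51.4 to 60.3) of WTKL and 64.3% (61.7 to 66.8) of LYZKL members, and in 37.7% and 39.8% after thinning. The nearby variable gene Trgv2 (chromosome 13, 19336573 to 19337167) was detected in 47.4% and 54.0%. Within Tcrg-C2-positive members, 72.9% and 69.3% had a Trgv2 UMI, against 15.1% and 26.6% of Tcrg-C2-negative members. The other gamma constant genes were rarer, with Tcrg-C1 in 6.65% and 4.50% and Tcrg-C4 in 13.7% and 3.85%. Some of the gamma constant genes are near copies of each other, so the split of reads between those is uncertain. Background was low, since 1.57% and 1.22% of B-gated cells and 5.75% and 5.78% of Cd4-gated cells had a Tcrg-C2 UMI.

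Tcrg-C2 was not particular to the members. Gzma-high CD8 cells had it in 59.6% and 68.8%, cells with Gzmk or Eomes in 38.4% and 52.3%, and naive-type cells in 3.61% and 4.72%. Only 37 and 86 T cells passed a gate of 2 or more Trdc UMIs, and these had Tcrg-C2 in 21.6% and 10.5%. Of these Trdc-gated cells 21.6% and 16.3% had a Scrublet score in the highest set, beside 11.7% and 14.96% of members. At so few cells they are a doubtful gamma-delta control. Among members, Tcrg-C2 went with fewer transcripts of the naive programme. Tcf7, a factor of naive and memory T cells, was detected in 28.9% and 15.4% of Tcrg-C2-positive members and in 49.3% and 20.7% of the others. Cxcr6 was found in 68.2% and 78.8% of Tcrg-C2-positive members, against 49.3% and 65.2%.

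**Figure D2:**
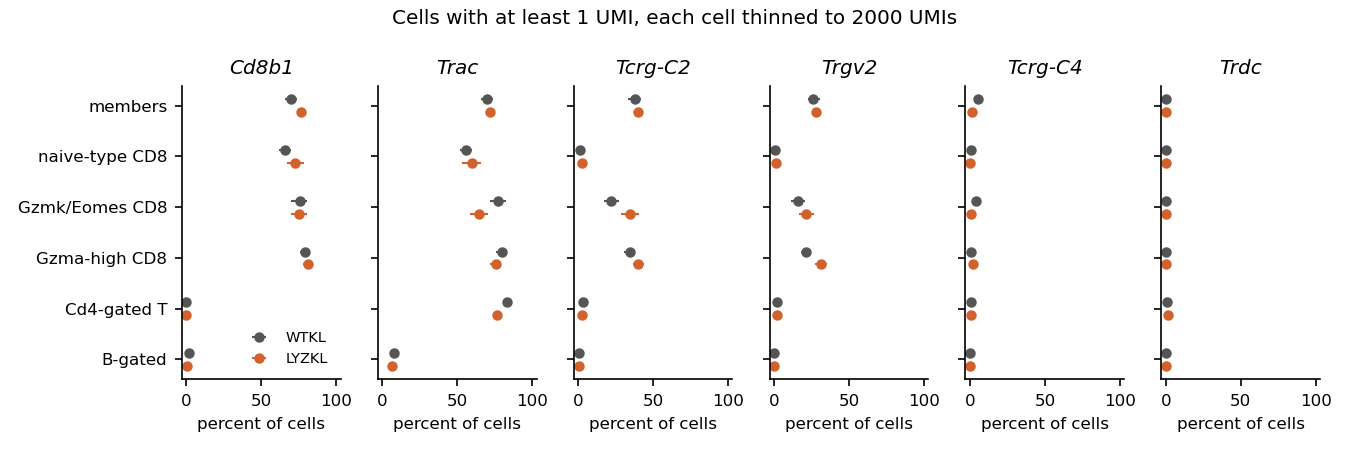
Percent of cells with at least 1 UMI (x axis) of Cd8b1 and 5 T cell receptor genes, each cell thinned to 2000 UMIs, in members and comparison gates (y axis) of WTKL (grey) and LYZKL (orange), with 95% exact binomial intervals. Members had Cd8b1 in 70.1% and 76.7% and Tcrg-C2 in 37.7% and 39.8%, while Trdc lay at the left edge in every gate shown.

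The label's other markers were present in part of the members. Klrk1 was detected in 48.0% and 71.3% of members (27.5% and 49.3% after thinning), against 0.895% and 1.52% of B-gated cells. Klrc1 was detected in 47.4% and 65.1%, or 27.1% and 38.9% after thinning. Of 9 NK and ILC1 markers, all were detected in LYZKL, and 3 (Ncr1, Klra4 and Klra8) were at 0 in WTKL. Together they summed to 761 and 731 CPM, against 529 and 486 CPM in CD8 cells without Xcl1 and Itga1 and 149 and 187 CPM in B-gated cells. The defining Ncr1 was seen in 0 of 496 members (which allows up to 0.605%) and 5 of 1377, and Klrb1c in 3.23% and 3.41%. The innate-like factor Zbtb16 was found in 2 cells of each library, and Foxp3, which marks regulatory T cells, in 0.806% and 0.944%. Fcer1g, an adaptor of innate receptors, was detected in 49.0% and 37.8%, but B-gated cells had it in 15.7% and 14.0%. Its level of 1302 and 962 CPM was 190 and 175 CPM without the myeloid-rich cells. Of the label's 5 markers, Xcl1, Itga1 and Cd8a belong to the rule and check nothing, and Klrk1 and Klrc1 were each undetected in many single members at this depth.

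Counted in percentage points, Klrk1 and Ccr7 shares changed across the gate on Xcl1 and Itga1, and less with the number of these UMIs inside it. As a ratio, the WTKL Ccr7 share fell further inside the gate than across it. The shares are of raw UMIs, and depth was not matched between these cells. Members with exactly 1 UMI of the pair, just inside the rule, were 217 of the WTKL members (43.8%) and 569 of the LYZKL members (41.3%). Klrk1 was detected in 43.8% and 66.6% of them, in 53.5% and 74.7% of members with 3 or more such UMIs, and in 15.8% and 44.5% of the low-Gzma CD8 cells with none, just outside the rule. Ccr7, which leads T cells to lymph nodes, was detected in 21.7% and 5.45% of the cells with 1 such UMI, in 7.06% and 4.32% of those with 3 or more, and in 44.7% and 22.4% outside. At the Gzma edge, Gzmb was detected in 54.1% and 31.4% of members with 1 Gzma UMI and in 65.7% and 49.2% of the 35 and 59 cells just outside with 2 or 3.

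Most members had UMIs of Xcl1 or of Itga1 but not of both. The rule admits cells on either gene at few UMIs, so selection and depth set part of this split. It does not show that the genes avoid each other. Among low-Gzma CD8 cells, 371 of 1661 in WTKL and 1183 of 2486 in LYZKL had an Itga1 UMI. Among those with an Xcl1 UMI, 91 of 216 and 189 of 383 had an Itga1 UMI. Itga1 alone marked 280 WTKL members (56.5%) and 994 LYZKL members (72.2%). Xcl1 alone marked 125 (25.2%, 21.4 to 29.3) and 194 (14.1%, 12.3 to 16.0), and both genes were found in 91 (18.3%) and 189 (13.7%). Itgae and Cxcr6 were more frequent in Itga1-only members, with Itgae in 58.6% and 56.5% of Itga1-only members against 27.2% and 32.0% of Xcl1-only members. Cxcr6 was in 64.3% and 76.6% against 43.2% and 57.7%. Tcf7 and Lef1 were more frequent in Xcl1-only members, with Tcf7 in 56.8% and 40.7% against 27.5% and 12.1%, and Lef1 in 36% and 23.7% against 20% and 8.75%. Tox, a factor of chronic stimulation, was in 52.0% and 69.6% of Xcl1-only and in 33.6% and 58.2% of Itga1-only members. Klrk1 and Tcrg-C2 were the more frequent in Itga1-only members, at 52.1% and 73.2% for Klrk1 and 62.5% and 65.9% for Tcrg-C2.

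A handful of cells held most of the Xcl1 RNA. Among the 216 and 383 members with an Xcl1 UMI the median was 2 UMIs in each library. However, 6 WTKL members (1.21%, 0.445 to 2.61) and 10 LYZKL members (0.726%, 0.349 to 1.33) had at least 100 Xcl1 UMIs each, from 103 to 1534 and from 179 to 831. They held 71.5% of the WTKL and 70.4% of the LYZKL members' Xcl1 UMIs. In the highest cells Xcl1 made up 9.58% and 10.5% of all UMIs. Xcl1 in members summed to 808 and 635 CPM, of which 234 and 190 CPM were left without these cells.

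Several effector transcripts were high in the Xcl1-high cells. Ccl3, Ifng, Tnfrsf9 (the costimulatory receptor 4-1BB) and Crtam were each detected in 6 of 6 WTKL and 10 of 10 LYZKL such cells. Ccl1, a chemokine for Ccr8-bearing cells, stood at 3848 CPM against 21.0 CPM in the other WTKL members, and at 3246 against 63.0 CPM in LYZKL. Ccl3 stood at 7730 against 457 CPM and at 7959 against 797 CPM. Penk, which encodes proenkephalin, stood at 1088 against 13.5 CPM and at 1064 against 33.9 CPM, but was detected in only 2 of the 6 and 6 of the 10 cells. Itga1 was detected in only 2 of the 6 and 4 of the 10 cells, and Klrk1 was at 167 CPM against 184 CPM in WTKL and at 198 against 354 CPM in LYZKL. All of them had a Trac UMI, 5 of 6 and 10 of 10 a Cd8b1 UMI, and none an Ncr1 UMI, while 2 in each library had a Scrublet score in the highest set.

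**Figure D3:**
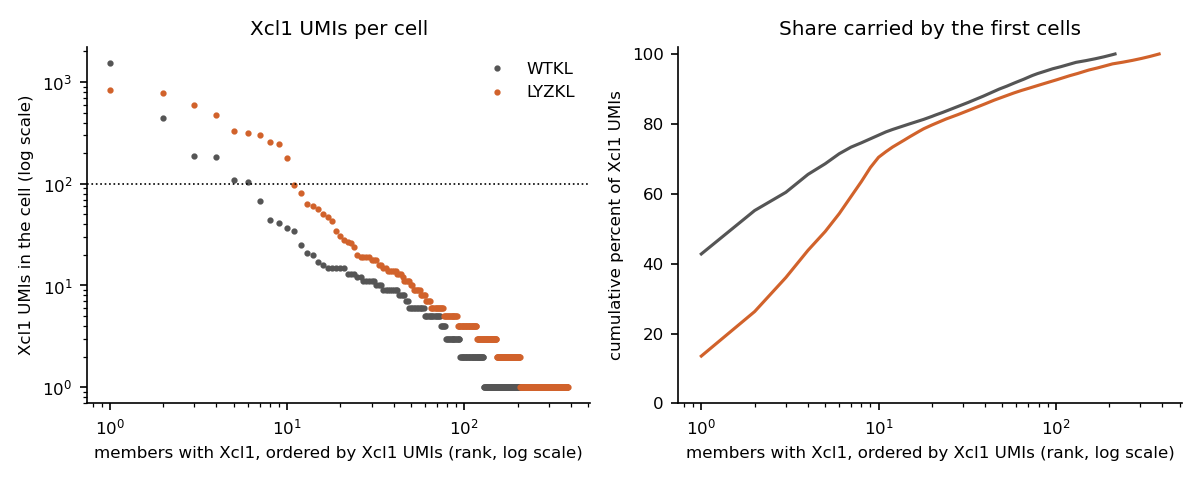
Left, Xcl1 UMIs per member cell (log y axis) against the cell's rank (log x axis) in WTKL (grey) and LYZKL (orange), with a dotted line at 100 UMIs, and right, the cumulative percent of Xcl1 UMIs over the same ranks. The 6 WTKL and 10 LYZKL cells above the line held 71.5% and 70.4% of the Xcl1 UMIs.

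Set beside the CD8 cells that pass the same Gzma limit but have neither Xcl1 nor Itga1 UMIs, members showed more tissue, killer receptor and activation transcripts and fewer of the naive programme. The rule used these cells' own values, so this is a description. Of 4739 genes compared, 149 (3.14%) were at least 1.5-fold higher in members in both libraries and 105 (2.22%) at least 1.5-fold lower. Without the myeloid-rich cells the numbers were 181 and 125 of 4737. Xcl1 and Itga1, whose difference the rule fixes, are among the higher genes in both counts. Klrk1 stood at 184 against 49.8 CPM in WTKL and at 352 against 211 CPM in LYZKL. Of 13 naive and central memory genes 12 were lower and none higher, with median log2 differences of -1.84 and -2.02 beside 0.07 and 0.03 over all genes. Igfbp4 (-2.62 and -3.43), Ccr7 (-2.16 and -2.67), Lef1 (-2.06 and -2.61) and S1pr1 (-1.85 and -2.01) were among the 10 lowest on that log2 scale.

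On the higher side, 6 of 19 residency genes, 6 of 15 chemokine and cytokine genes, 5 of 15 checkpoint genes and 4 of 9 killer lectin and NK receptor genes were at least 1.5-fold higher in members in both libraries. Xcl1 and Itga1, whose difference the rule fixes, were not taken out of these lists. Ccl1 stood at 72.5 against 1.89 CPM in WTKL and at 106 against 37.6 CPM in LYZKL. However, the 5 highest cells held 83.9% and 55.0% of its UMIs, and without the Xcl1-high cells Ccl1 in members was at 21.0 and 63.0 CPM. Rgs16, a regulator of G protein signalling, stood at 94.1 against 33.8 CPM and at 104 against 45.6 CPM, and Nrn1 at 41.7 against 11.3 CPM and at 84.9 against 40.7 CPM. Proliferation genes were also among the 20 highest, with Ccnb2 (cyclin B2) at 32.4 against 5.66 CPM and 32.3 against 8.36 CPM, and 7 of 14 cell cycle genes were at least 1.5-fold higher. In Gzma-high cells Ccnb2 was higher than in members, at 78.2 and 38.1 CPM, and Nrn1 lower, at 7.38 and 50.5 CPM. Rgs16 in Gzma-high cells was at 42.2 and 107 CPM. Macrophage genes such as Spp1, Trem2, Msr1, C1qa and Lyz2 were in the same set. Lyz2 stood at 1755 against 878 CPM and at 1513 against 633 CPM. Myeloid-rich cells were 27.0% and 18.9% of members but 16.7% and 13.2% of the cells without Xcl1 and Itga1. With myeloid-rich cells left out on both sides, Ifitm1 entered the highest set, at 727 against 163 CPM and 481 against 165 CPM.

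Between the libraries, most genes of the members lay close together. Of 5023 genes that reached 30 CPM in either library and 100 UMIs in all, 137 (2.73%) were at least 1.5-fold higher in LYZKL and 138 (2.75%) at least 1.5-fold lower. The balance depended on the scaling, with 96 higher and 185 lower under TMM scaling, and 178 higher and 114 lower of 5099 genes without the myeloid-rich cells. Without the cells of highest Scrublet score, 233 genes were lower. For the TMM and Scrublet counts the number of genes compared is not given, so they cannot be read as shares. Over the 10028 genes of at least 5 CPM in 1 library, the floor used for the gene lists, 688 (6.86%) were higher and 397 (3.96%) lower by that fold, with a median log2 difference of 0.08. Of all these genes 6256 of 10028 were higher in LYZKL by any amount, against which the counts for lists are to be read. A summed level does not tell fewer cells with a transcript from less of it per cell, so shares of cells are given for several genes.

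The receptor genes Klri2, Styk1, Klrk1 and Klrc1 were higher in LYZKL members. Klri2, a lectin-like receptor of the NK gene complex (chromosome 6, 129729041 to 129740484), stood at 9.68 CPM (7.01 to 13.0) in WTKL and at 50.4 CPM (46.0 to 55.1) in LYZKL, a log2 difference of 2.38 (1.93 to 2.86). It was detected in 5.04% and 19.0% of members. Styk1, a kinase-like membrane protein on the same chromosome (131299142 to 131353597), stood at 9.68 and 30.3 CPM (log2 1.65, 1.18 to 2.14). Klrk1 stood at 184 CPM (172 to 197) and 352 CPM (340 to 364), a log2 difference of 0.93 (0.82 to 1.05). Klrc1 stood at 157 and 248 CPM, a log2 difference of 0.66 (0.54 to 0.78). Without the myeloid-rich cells these 4 differences were 2.32, 1.78, 0.82 and 0.44.

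The receptor differences were not confined to members. In CD8 cells without Xcl1 and Itga1, Klri2 was at 6.11 and 33.0 CPM, Styk1 at 2.00 and 16.9 CPM, and Klrk1 at 49.8 and 210 CPM. In Gzma-high cells Klri2 was at 6.85 and 44.98 CPM, Styk1 at 8.79 and 62.3 CPM, and Klrk1 at 278 and 387 CPM. Within the members, the Klri2 difference on the log2 scale was 1.81 in Xcl1-only, 2.58 in Itga1-only and 3.27 (1.85 to 5.19) in doubly positive cells, the last from 4 WTKL UMIs. The killer lectin and NK receptor list as a whole was mixed. Of 18 measured genes 12 were higher, about the share over all genes (6256 of 10028), and 6 lower. Past 1.5-fold were 5 higher and 4 lower, larger shares than the 6.86% and 3.96% over all genes. The list median was 0.32, or 0.12 without the myeloid-rich cells. Klrd1, the partner of NKG2A, stood at 279 and 396 CPM, and Klrc2 at 44.4 and 67.0 CPM. The inhibitory Ly49 gene Klra7 went the other way, at 23.6 and 4.55 CPM, and Slamf7 stood at 146 and 96.2 CPM. Members of the Klr families are near copies of each other, so their split is uncertain.

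Residency genes were mixed, with 13 of 25 higher and a median of 0.10. Itga1 stood at 147 and 238 CPM (log2 0.70), a level that the rule conditions and that goes with the larger part of Itga1-only cells in LYZKL. Cxcr6 stood at 182 and 325 CPM (log2 0.84), and was detected in 59.9% and 73.9% of members. Itgae stood at 149 and 193 CPM (log2 0.38). Inpp4b, a phosphoinositide phosphatase, was at 506 and 795 CPM, and Adgrg1, an adhesion receptor of effector lymphocytes, at 31.5 and 57.6 CPM. Cd69, which retains T cells by opposing S1pr1, was lower at 335 and 269 CPM. Zfp683 (Hobit), a residency factor in mice, was near its floor of detection at 4.73 CPM (2.93 to 7.23) and 5.07 CPM (3.75 to 6.70).

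Naive and tissue exit genes were lower in LYZKL members. All 13 naive and central memory genes measured were lower and 9 passed 1.5-fold. Their median log2 difference was -0.91, or -1.05 without the myeloid-rich cells. Tcf7 stood at 124 and 55.4 CPM (log2 -1.16), Lef1 at 65.8 and 26.5 CPM (log2 -1.31) and Ccr7 at 36.9 and 16.2 CPM (log2 -1.18). Of 14 tissue exit genes 12 were lower, 7 past 1.5-fold, with a median of -0.50. They included Ly6c2 at 386 and 191 CPM and S1pr1 at 22.7 and 12.9 CPM. The naive list had a median of -1.06 in Tcrg-C2-negative and of -0.23 in Tcrg-C2-positive members. Lower naive genes were not particular to members: the median was -0.65 in CD8 cells without Xcl1 and Itga1, -0.97 in Gzma-high cells, -0.37 in cells with Gzmk or Eomes and -0.39 in Cd4-gated cells. In naive-type CD8 cells, set apart by some of the same genes, it was 0.10. Among the lowest genes over all were Txk, a Tec-family kinase, at 67.8 and 20.1 CPM (log2 -1.76), and the lipid receptor gene Gpr18 at 83.1 and 25.1 CPM (log2 -1.72). Plac8 stood at 371 and 121 CPM (log2 -1.62) and Igfbp4 at 62.2 and 20.3 CPM (log2 -1.62). Txk was detected in 22.8% and 8.06% of members, and Gpr18 in 32.5% and 12.1%, so that fewer cells carried each of them in LYZKL.

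Checkpoint genes were higher in LYZKL members in 13 of 18 cases, 2 of them past 1.5-fold, near the shares over all genes (6256 of 10028 and 6.86%). Tox stood at 125 and 237 CPM (log2 0.93), and was found in 41.1% and 60.8% of cells. Havcr2 (TIM-3) stood at 46.6 and 73.1 CPM (log2 0.65). Pdcd1 (PD-1), at 173 and 235 CPM (log2 0.44), was under 1.5-fold. Btla went the other way, at 22.1 and 12.0 CPM. Higher checkpoint genes were not particular to members. The list median was 0.22 in members, 0.39 in CD8 cells without Xcl1 and Itga1 and 0.43 in Gzma-high cells. It was 0.20 in cells with Gzmk or Eomes, 0.16 in naive-type cells and 0.13 in Cd4-gated cells. Tox was at 106 and 196 CPM in CD8 cells without Xcl1 and Itga1, and at 30.9 and 112 CPM in Gzma-high cells. Pdcd1 was at 71.3 and 173 CPM and at 91.0 and 289 CPM in these.

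Cytotoxic genes differed unevenly. Perforin (Prf1) stood at 50.2 and 102 CPM (log2 1.02), and Nkg7, a granule protein, at 1053 and 1423 CPM (log2 0.43). Granzyme B (Gzmb) was at 213 and 271 CPM (log2 0.35), yet fewer cells had it, 33.9% and 22.9%. Gzmc had 1 UMI in WTKL and 85 in LYZKL, in 0.202% and 1.45% of members, a log2 difference of 5.29 with a counting interval of 2.77 to 10.61. The granzyme inhibitor gene Serpinb9 was lower, at 42.3 and 18.2 CPM (log2 -1.22). The list as a whole had 10 of 16 genes higher, about the share over all genes (6256 of 10028), and a median of 0.23, or 0.086 without the myeloid-rich cells. It contains genes of the granzyme family, one of which the rule limits.

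Among secreted factors, Ccl4 stood at 945 and 1624 CPM (log2 0.78) and Ccl3 at 554 and 895 CPM (log2 0.69). The 5 highest cells held 38.0% and 13.4% of the Ccl3 UMIs, and its log2 difference was -0.11 when the rule was applied after thinning. Ccl5, the most abundant of them, stood at 4505 and 5460 CPM (log2 0.28). Csf1, which sustains macrophages, was at 46.2 and 93.1 CPM (log2 1.01), and Tnfsf11 (RANKL) at 76.6 and 139 CPM (log2 0.86). Csf1 was also higher in LYZKL in CD8 cells without Xcl1 and Itga1 (19.2 and 60.3 CPM) and in Gzma-high cells (35.7 and 145 CPM). In naive-type cells Csf1 was at 14.9 and 13.4 CPM. Ifng differed little, at 314 and 328 CPM, with an interval of the log2 difference from -0.03 to 0.15. Areg, an epidermal growth factor receptor ligand, was at 9.23 and 32.4 CPM. However, 5.85% and 5.59% of members had an Areg UMI, and the 5 highest cells held 41.5% and 57.8% of its UMIs. Xcl1 itself was lower (log2 -0.35), and the 5 highest cells held 68.6% and 49.2% of its UMIs.

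Among further genes with high ratios, Schip1 stood at 31.8 and 84.3 CPM (log2 1.41) and was detected in 16.9% and 37.0% of members. Itsn1, an endocytic scaffold, stood at 22.5 and 58.6 CPM (log2 1.38), and the peptide transporter gene Slc15a2 at 23.4 and 55.7 CPM (log2 1.25). Lmna, which encodes lamin A, stood at 93.0 and 202 CPM (log2 1.12). The metallothionein Mt2 was at 17.3 and 59.7 CPM, with 48.1% and 16.3% of its UMIs in 5 cells. The 15 highest and 15 lowest also held myeloid genes confined to few cells. The neutrophil gene Stfa1 had 292 UMIs in 1.31% of LYZKL members, 80.1% of them in 5 cells, and the chemokine gene Cxcl13 had 212 UMIs in 3 WTKL members. Apoe stood at 922 and 338 CPM, and myeloid-rich cells were 27.0% and 18.9% of the members behind these sums.

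**Figure D4:**
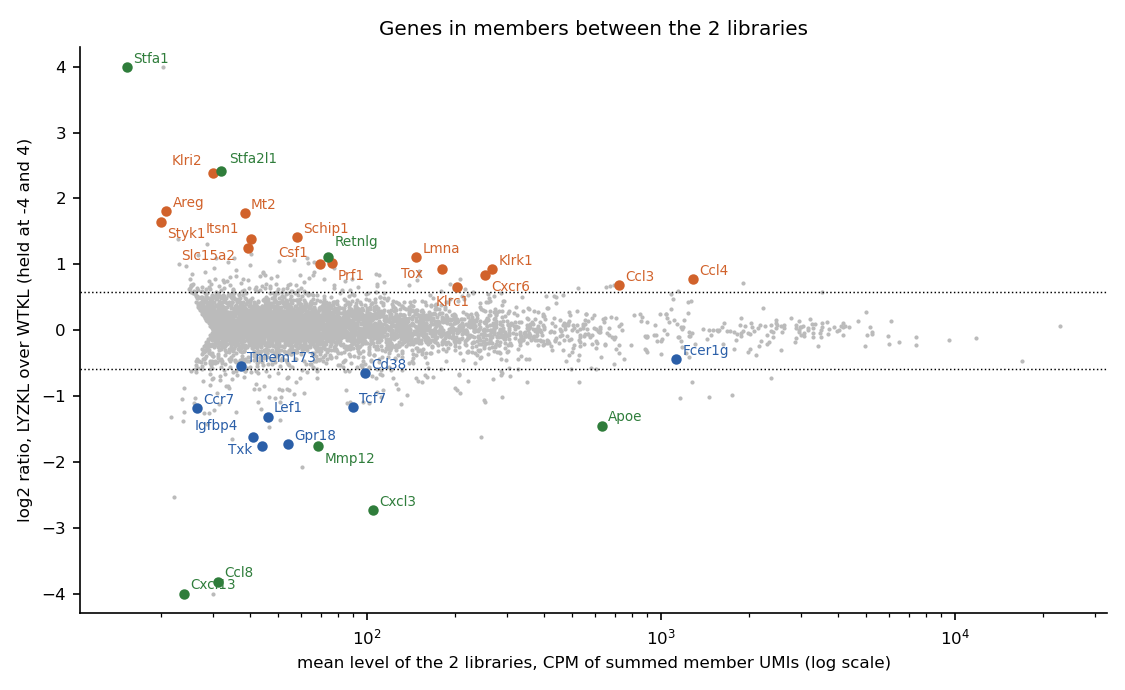
Log2 ratio of CPM in members, LYZKL over WTKL (y axis, values beyond -4 or 4 drawn at that bound), against mean CPM (log x axis) for genes that reached 30 CPM in either library and 100 UMIs in all. Dotted lines mark 1.5-fold, and named genes are orange where higher, blue where lower and green where they are myeloid genes. Klri2 and Styk1 lie above the upper line, and Txk and Gpr18 below the lower one.

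Interferon-response genes were lower in LYZKL members. Of 31 measured genes of the type I interferon response, which STING signalling can set off, 29 were lower, 15 of them past 1.5-fold, and 2 were higher, with a median of -0.50, or -0.40 without the myeloid-rich cells. Irf7, a master factor of that response, stood at 57.9 and 27.3 CPM (log2 -1.08), Isg15 at 160 and 91.2 CPM (log2 -0.81), Ifit3 at 33.6 and 14.2 CPM and Oasl1 at 29.5 and 9.11 CPM (log2 -1.70). Of 30 interferon gamma response genes 25 were lower, 6 past 1.5-fold, among them Gbp3 at 72.5 and 42.1 CPM and Ifi47 at 209 and 128 CPM, with a median of -0.24. Macrophages express many of these genes too. Without the myeloid-rich cells the interferon gamma median was -0.12, and the macrophage-expressed Ifi205, at 68.5 and 24.7 CPM in all members, was at 8.78 and 1.66 CPM. In the same cells Irf7 was at 28.1 and 19.0 CPM (log2 -0.57), under 1.5-fold, whereas Ifit3 was at 40.4 and 12.5 CPM (log2 -1.69).

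The type I median differed among CD8 and CD4 cells. In members it was -0.72 in Tcrg-C2-positive and -0.26 in Tcrg-C2-negative cells, and -0.72 in Itga1-only cells, where 31 of 31 genes were lower. Xcl1-only cells had -0.33. It was -0.66 in Gzma-high cells, -0.76 in cells with Gzmk or Eomes and -0.07 in naive-type cells. Cd4-gated cells had 0.32, with 20 of 25 genes higher in LYZKL. None of these differences between gates was tested.

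STING itself and the purine genes completed the lists. Tmem173 stood at 44.4 and 30.3 CPM (log2 -0.55, -0.81 to -0.28), under 1.5-fold. Without the myeloid-rich cells its log2 difference was -0.43 (-0.78 to -0.08). The STING pathway list as a whole had 8 of 14 genes higher and a median of 0.03. Cd38, an enzyme that consumes NAD, stood at 121 and 77.0 CPM (log2 -0.65) and was found in 40.1% and 24.98% of members. P2rx7, an ATP receptor that NAD can also trigger on T cells, stood at 18.2 and 9.83 CPM (log2 -0.89, or -1.67 without the myeloid-rich cells). The adenosine receptor gene Adora2a stood at 29.5 and 13.0 CPM (log2 -1.18). The purine list as a whole was even, with 10 of 19 genes higher, 2 past 1.5-fold, and 3 lower by that fold.

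Of the remaining lists, those of cell cycle (median -0.08, none of 35 genes past 1.5-fold), glycolysis (-0.17, none of 21), oxidative phosphorylation (0.06), ribosomal protein (0.02), mitochondrially coded (-0.09), immediate early and heat shock (-0.07), BCL2 family (-0.08), costimulation (-0.04), cytokine receptor (-0.17), transcription factor (-0.08) and innate-like adaptor genes (-0.24) had the medians given. Among transcription factors, Runx2 stood at 156 and 242 CPM and Ikzf2, the Helios gene, at 69.8 and 37.6 CPM. Among the adaptors, Hcst (DAP10), which couples NKG2D to its signal, stood at 382 and 550 CPM (log2 0.53), and Cd7 at 81.1 and 41.8 CPM. In the cells left without myeloid-rich ones, 30 of 35 cell cycle genes were lower in LYZKL, with a median of -0.26. There the glycolysis median was 0.036, with 11 of 21 genes higher against 4 of 21 in all members, and the innate-like adaptor median was -0.056.

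**Figure D5:**
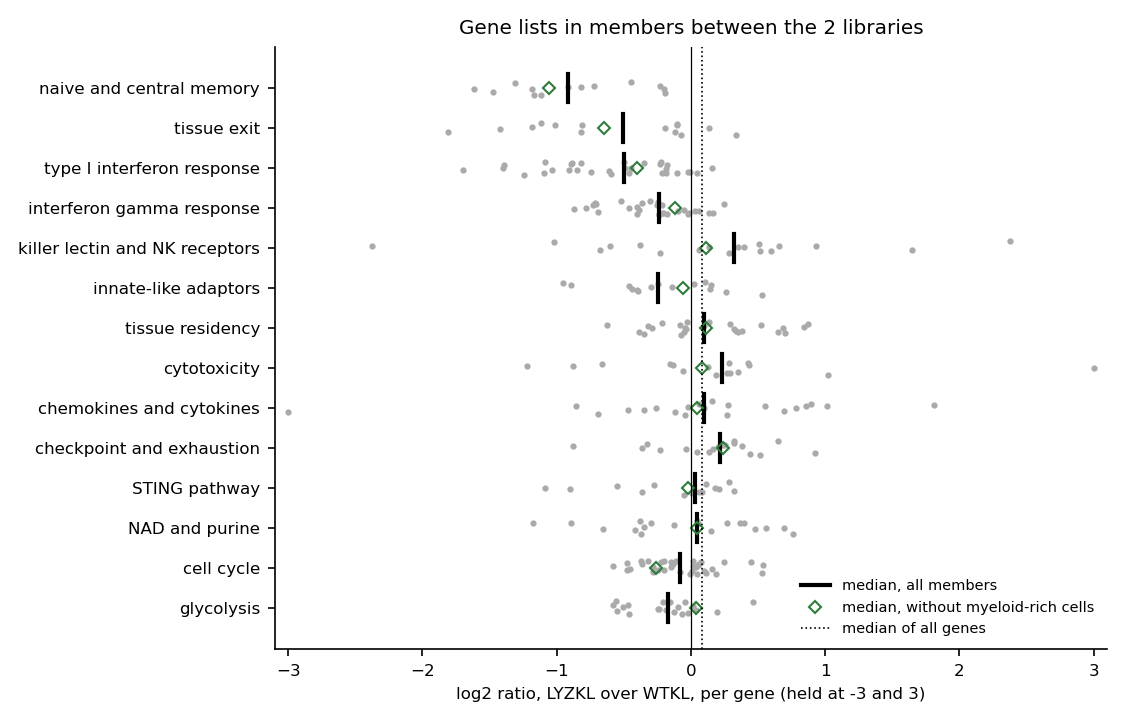
Log2 ratio of CPM in members, LYZKL over WTKL, for each gene (grey points) of 14 lists, with the list median over all members (bar) and without myeloid-rich cells (diamond), on an x axis in log2 units held at -3 and 3; the dotted line is the median of all genes. Naive and tissue exit genes and type I interferon response genes lie mostly below 0, with medians of -0.91, -0.50 and -0.50.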

How the data were processed

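Droplet single-cell RNA libraries (10x Genomics 3' version 3 chemistry, per the labels' protocols) were made from sorted lung tumour T cells, 1 library per group. The deposited matrices hold raw UMI counts per gene and barcode, whole numbers with no normalization. The submitters' processing notes name Cell Ranger 6.1.2 and mm10. Feature and barcode files hold identifiers only. Gene positions come from GENCODE gene models on GRCm38, matched by gene identifier.

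The members and the gene lists were chosen with earlier results of these data known. UMIs of the members were summed per library and scaled by that sum to CPM. Intervals are exact Poisson for levels, exact Clopper-Pearson for shares, Katz log for ratios of shares and exact conditional binomial for ratios of levels. A gene counted as different at 1.5-fold or more. Genes named between the libraries are the 15 highest and 15 lowest ratios at 30 CPM and 100 UMIs, leaving out receptor segment, mitochondrially coded, ribosomal protein, sex-linked and unnamed genes. Items withheld from the text are not reported here. To these were added a fixed set of markers and up to 4 examples per list at 30 CPM. Against other CD8 cells they are the 20 highest and 10 lowest by the smaller difference of both libraries. The Xcl1-high and myeloid-rich cells were defined after seeing the data, and genes named only within them were chosen after their values were seen.

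Leaving out these cells, or cells with an Xist UMI, was an alternative chosen after seeing the data. The other alternatives changed the gates, the limits on barcodes, the removal of high Scrublet scores (0.8% per 1000 barcodes), thinning, scaling (edgeR 4.0.16 TMM factors) and the gene floors. Calculations used numpy 2.4.6, scipy 1.17.1, pandas 2.3.3 and scanpy 1.11.5, and were tested on simulated data.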

Additional observations from a re-analysis of the deposited data

Results flagged for a closer look

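Sex-linked transcripts, which no comparison used, separated a few members. Among members with UMIs of Xist or of Y-linked genes but not of both, 21 of 365 in WTKL (5.75%, 3.60 to 8.66) had Xist only, against 2 of 963 in LYZKL (0.208%, 0.0252 to 0.748). CD8 cells with neither Xcl1 nor Itga1 had 5.85% and 0.260%, and Cd4-gated cells 4.84% and 3.28%. With cells that carry an Xist UMI left out, 157 genes were at least 1.5-fold higher and 159 lower in LYZKL members, of a number compared that is not given. The part of these cells in the other results was not tested beyond that count.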

How the results depend on the processing

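No paired analysis was possible because each group is 1 library, and for the same reason none could be left out. Each library's depth limits shares of cells with a UMI, and intervals cover counting error only. The share of members among CD8-gated cells was higher in LYZKL under all 18 alternatives, 14 of them inside the main interval. The ratio was 1.30 with Xcl1 alone, 2.34 with Itga1 alone, 1.54 with no Gzma limit and 2.35 with Tcrg-C2-negative cells only. Klri2 (1.91 to 2.86), Klrk1 (0.72 to 1.03), Styk1 (1.33 to 3.29), Tcf7 (-1.44 to -0.82) and Txk (-2.08 to -1.39) kept their direction over 23 alternatives on the log2 scale, as did the naive (-1.23 to -0.32) and type I interferon (-0.69 to -0.12) medians. Xcl1 ranged from -0.81 to 1.12 and Gzmb from -1.86 to 1.08.

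Genes at least 1.5-fold higher in LYZKL were 249 with Xcl1 alone, 306 with Tcrg-C2-negative cells, 418 at a floor of 10 CPM and 30 UMIs, and 35 at 100 CPM. Genes lower were 233 without high Scrublet scores, and 279 and 58 at those floors. Of members against other CD8 cells, 367 genes were higher with Tcrg-C2-negative cells, 7 after thinning, 60 without cells that had any myeloid UMI, and 315 and 63 at the floors. Genes lower there were 23 after thinning, 49 without myeloid UMIs, and 189 and 35 at the floors. Thinning and higher floors leave fewer genes to compare. The number of genes compared under each alternative is not given, so these counts cannot be read as shares or set against the main percentages.

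Cd8b1 was in 94.9% of WTKL members with no Gzma limit, 89.9% of WTKL and 93.0% of LYZKL when the rule was applied after thinning, and 93.5% of LYZKL with Xcl1 alone. Tcrg-C2 was in 61.6% of WTKL members with at least 2 UMIs of Xcl1 and Itga1, 62.0% with Itga1 alone, 60.7% with no Gzma limit, and 47.2% (WTKL) and 60.1% (LYZKL) with Xcl1 alone. With the rule applied after thinning its order turned, to 48.1% in WTKL and 42.4% in LYZKL, whereas the members thinned after selection had 37.7% and 39.8%. It was 60.3% in LYZKL without myeloid UMIs. Itga1 alone marked 41.9% (WTKL) and 63.4% (LYZKL) with at least 2 UMIs, 67.2% (WTKL) with no Gzma limit, 47.9% and 68.9% with Tcrg-C2-negative cells, and 75.3% (LYZKL) without myeloid UMIs.

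Directions turned for the cytotoxicity median (-0.12 with no Gzma limit, -0.20 after thinning), the killer lectin (-0.0059) and innate-like adaptor (0.047) medians without myeloid UMIs, and with the rule applied after thinning for Ccl3 (-0.11), Ccr7 (1.30) and Igfbp4 (0.89), the last 2 at few UMIs. Of the 22 lists, the 8 with a median at least 0.2 from 0 became 5 without myeloid UMIs and 5 with the mean of per-cell CPM. The cause of these changes was not tested.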
